A study of Sus scrofa domesticus with 4 samples.

Results

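Swine leukocyte antigen (SLA) class I molecules and the machinery that supplies them with peptides were followed through 8 genes in porcine endometrium, the lining of the uterus. They are the class I heavy chain genes SLA-3, SLA-5, SLA-6 and SLA-8, the light chain gene B2M, the peptide transporter gene TAP1 and the immunoproteasome genes PSMB8 and PSMB9. Members were the non-control probes whose accession maps through RefSeq to one of these symbols. This gave 23 of the 43603 probes on the array and 8 of the 3029 genes that could be named. Of these, 19 probes, covering all 8 genes, passed the filter on dim signals, among 13782 probes tested.

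The explants came from mature gilts, Large White x Polish Landrace crosses of 7 to 8 months, in gestation for 15 to 16 days. The first group was cultured for 24 h with 10 nM orexin B (OXB), a hypothalamic peptide also called hypocretin 2, and the second for the same time with no treatment. Both groups shared the preincubation of 2 h in 2 mL of medium, and both came from pregnant animals, so no non-pregnant tissue enters the comparison. Treated and untreated RNA were hybridised together to each of 4 two-colour arrays. Per the labels, Cy5 marked the treated RNA of arrays 1 and 3, and the dyes were swapped for arrays 2 and 4. Which animal went to which array is not given in the sources used here, so an array counts as a replicate. The standard errors and p-values of the fit measure the spread between arrays of the same dye orientation, drawn towards that of other probes. A difference between the orientations enters a dye term fitted beside the treatment, so these errors do not cover the whole spread over the 4 arrays. An explant holds epithelium, stroma, vessels and leukocytes together, and fewer cells of a type cannot be told apart from less RNA per cell.

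Class I molecules sit on the surface of nearly all nucleated cells and show peptides from inside the cell to CD8 T cells. Proteasomes cut the peptides, the TAP1 and TAP2 transporter carries them into the endoplasmic reticulum, chaperones load them onto a heavy chain paired with beta-2 microglobulin, and the complex moves to the surface. Interferon gamma raises the transcription of most of these genes, and in the pig the conceptus secretes interferons around attachment. Classical heavy chains such as SLA-3 are highly polymorphic, while SLA-6 and SLA-8 are non-classical genes with little polymorphism. SLA-5 resembles the classical genes in sequence, and its role is less well known.

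The measurements differed between channels and between arrays. The share of spots clearly above background in the Cy5 channel was 82.4% to 86.7% for arrays 1, 3 and 4. It was 46.8% for array 2, the only array from another slide and another scan. In the Cy3 channel 27.8% to 36.2% of spots were above background, although its median signal was the higher on all 4 arrays. Markers of the labelled tissue were present: EPCAM, KRT8 and CDH1 of epithelium and DCN and LUM of stroma were above background in both conditions on all 4 arrays. Of the lymphocyte markers, CD3E, CD4, CD79A and MS4A1 were above background in 0 Cy3 channels, CD8A in 1, CD3G in 2, and GZMB and NKG7 in 4. In Cy5, CD3E, CD8A, CD3G, GZMB and NKG7 were above background in 4 channels, and CD4, CD79A and MS4A1 in 3.

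No member gene passed the test between treated and untreated explants. Limma, with Benjamini-Hochberg adjustment over all tested probes, called 0 of 13782 probes (0%), with a smallest adjusted p = 0.999. An unadjusted p under 0.05 was reached by 495 probes (3.59%). Of the 19 tested member probes, 19 had a fitted log2 ratio of treated over untreated below 0 with loess normalisation. The share was 46.9% over all tested probes and 56.1% over all tested named genes. With each array centred on its median in place of loess, 6 of the 19 were below 0 and 13 above it, while the median of all tested probes moved to 0.28 and 18 of the 19 lay below that median. With loess the fitted member ratios ran from -0.54 to -0.01, with a median of -0.29. The median was 0.02 over all tested probes and -0.02 over all tested named genes. At an unadjusted p under 0.05, 3 member probes (15.8%) were lower and 0 higher. Of all tested probes 1.87% were lower and 1.72% higher, and of 1637 tested named genes 64 were lower and 30 higher. Under other settings the member count is given with that of all probes in the same fit in brackets. It was 0 with median centring (1080), the scanner's log ratio (556), the authors' deposited value table (569) and without array 3 (420). It was 1 without the dye term (270) or array 2 (490), 2 without array 1 (357) and 3 without array 4 (1570). It was 3 with every channel above background (381, among 11143 probes) and 5 with no background correction (448). With no filter on dim probes it was 7 (1394, among up to 43603 probes). With loess, the dye term and all 4 arrays the 3 were A_72_P625308 and A_72_P517623 of SLA-3 and A_72_P441848 of SLA-5. The 19 probes are not independent: 7 of them cite a single SLA-3 transcript, and the heavy chain genes are close relatives.

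The arrays did not show the same picture. The median ratio of the 19 member probes was 0.16 on array 1, -0.39 on array 2, -0.43 on array 3 and -0.33 on array 4. The corresponding medians of all tested probes lay between -0.03 and 0.06. Those of all tested named genes were 0.09, -0.13, -0.05 and 0.03 on arrays 1 to 4. On array 1, 12 of the 19 member probes were higher in treated explants, whereas 2, 1 and 4 were higher on arrays 2, 3 and 4. A ratio below 0 on all 4 arrays was found for 5 member probes (26.3%), against 3.61% of all tested probes, and 0 member probes were above 0 on all 4. The 5 were A_72_P515992, A_72_P683231 and A_72_P440386 of SLA-3, A_72_P441848 of SLA-5 and A_72_P709927 of B2M. Without array 2, the array of the separate slide and scan, 17 of the 19 fitted ratios were below 0, with a median of -0.30. Fits without an array kept the dye term, so the remaining array of the same orientation weighed as much as the other 2 together. Such a ratio is therefore not the plain mean of the remaining arrays.

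**Figure D1:**
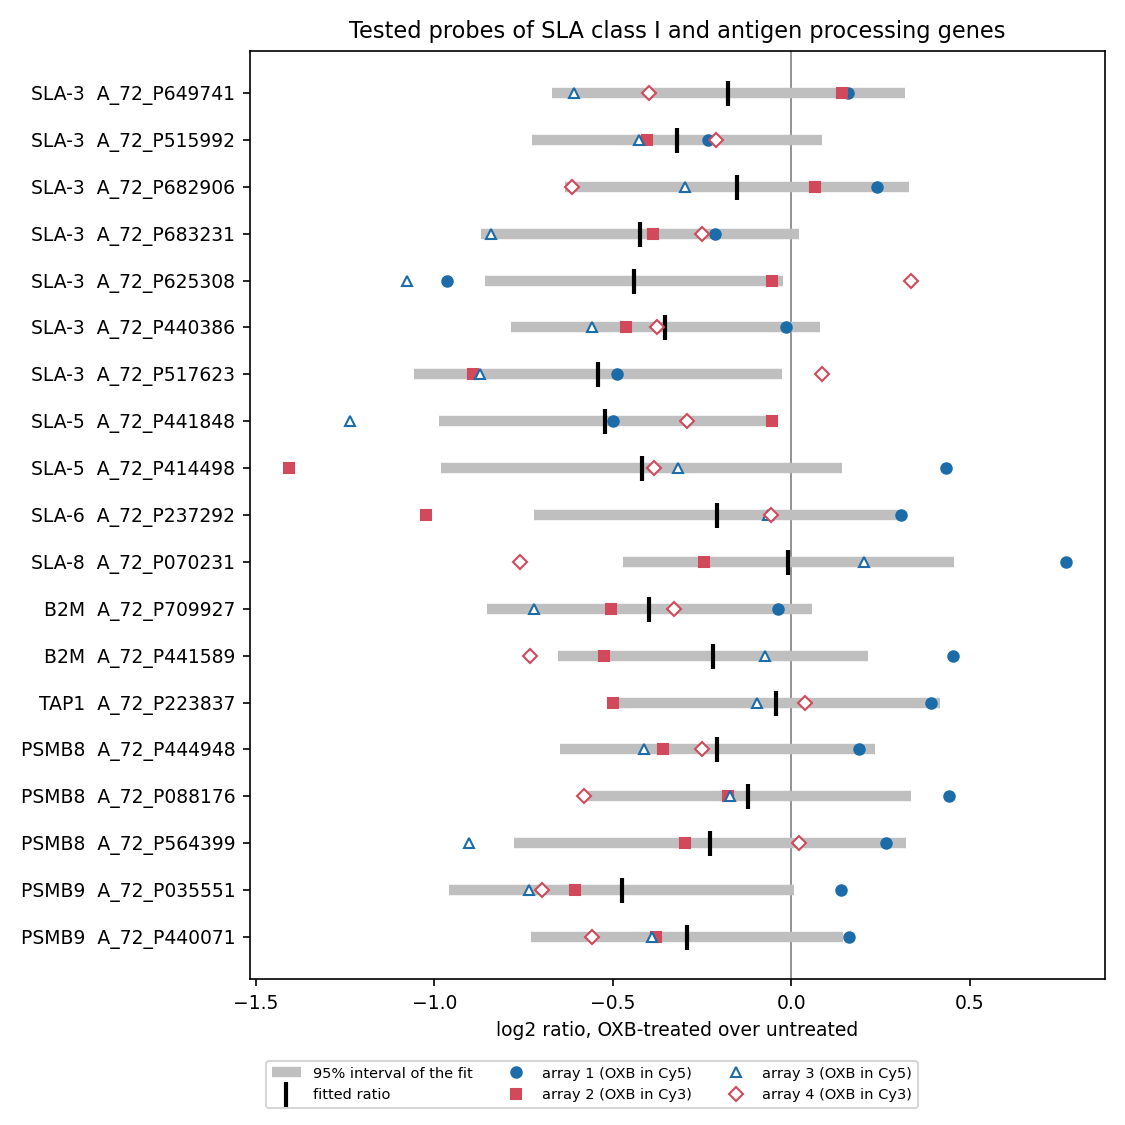
Log2 ratio of OXB-treated over untreated explants (x axis) for the 19 tested probes of the 8 genes (rows). Symbols are the 4 arrays with the dye that held treated RNA, black ticks the ratio fitted with loess, and grey bars its 95% interval. Array 1 lies to the right of 0 for 12 of 19 probes. With median centring 13 of the 19 fitted ratios would lie above 0, and the median of all tested probes at 0.28.

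SLA-3 encodes a classical class I heavy chain and had the most probes. Its brightest probe (A_72_P649741) had normalised intensities of 77267, 166990, 52535 and 90675 in treated explants on arrays 1 to 4, against 69179, 151362, 80110 and 119523 in untreated explants. Treated RNA was thus the brighter on arrays 1 and 2 and the dimmer on arrays 3 and 4. Its fitted log2 ratio was -0.18 ± 0.21 (moderated SE, n = 4 arrays; 95% interval -0.67 to 0.32; limma adjusted p = 0.999). Leaving out array 3 gave 0.02, and leaving out array 1 gave -0.37.

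Another SLA-3 probe (A_72_P515992) was the most even of all member probes across arrays. It had 55501, 101904, 55692 and 62482 units in treated explants, against 65284, 134882, 74825 and 72374 in untreated explants. Treated RNA was dimmer on 4 of 4 arrays, with ratios between -0.43 and -0.21 and a fitted log2 ratio of -0.32 ± 0.17 (limma adjusted p = 0.999). Its dye term, the part of the Cy5 over Cy3 ratio that does not turn with the treatment, was -0.01, and with median centring its ratio was 0.10.

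The lowest fitted SLA-3 ratio, -0.54 ± 0.22, belonged to the dimmest probe of the gene (A_72_P517623), which stood at -0.49, -0.89, -0.87 and 0.09 on arrays 1 to 4. Without array 2 it was -0.30. The probe A_72_P625308 stood at -0.97, -0.05, -1.08 and 0.34, low on both arrays with treated RNA in Cy5, and had a dye term of -0.58 beside a treatment ratio of -0.44. The other 3 probes were fitted between -0.42 and -0.15. All 7 probes cite the same accession, yet within a single array they spread over 0.78 to 1.20 log2 units, more than the median SLA-3 ratio of -0.35. RefSeq gives SLA-1 and SLA-7 as synonyms of SLA-3 and SLA-1 as a synonym of SLA-5, and no probe on the array matched SLA-1 or SLA-2 by this route. Which heavy chain transcripts each probe binds was not tested.

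SLA-5 had the lowest ratio of the 8 genes by brightest probe (A_72_P441848). It had 25493, 67484, 17825 and 39258 units in treated explants, against 36035, 70063, 42027 and 48075 in untreated explants. Treated RNA was dimmer on 4 of 4 arrays, with log2 ratios of -0.50, -0.05, -1.24 and -0.29 on arrays 1 to 4. The fitted ratio was -0.52 ± 0.20 (95% interval -0.99 to -0.06; limma adjusted p = 0.999), which is 0.697 times the untreated level. With median centring it was -0.17, and without array 3 it was -0.34. The second SLA-5 probe (A_72_P414498) stood at 0.43, -1.41, -0.32 and -0.38 on the 4 arrays, so that arrays 1 and 2 differed by more than its fitted ratio of -0.42 ± 0.24, which became -0.16 without array 2 and -0.23 without array 3.

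The non-classical genes gave no steady ratio. SLA-6 had 1884, 1145, 1738 and 1469 units in treated explants, against 1523, 2326, 1817 and 1527 in untreated explants. Array 2 alone held most of its difference: the ratio was -1.02 there and between -0.06 and 0.31 on the other arrays. Its fitted ratio of -0.21 ± 0.22 became 0.03 without array 2.

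For SLA-8, 1 of 4 probes was tested, A_72_P070231, with 7764, 2087, 2073 and 2960 units in treated explants and 4558, 2474, 1799 and 5017 units in untreated explants. The ratio was above 0 on both arrays with treated RNA in Cy5 (0.77 and 0.20) and below 0 on both with treated RNA in Cy3 (-0.25 and -0.76). The fit therefore gave a treatment ratio of -0.01 ± 0.20 beside a dye term of 0.49, the highest dye term among the tested member probes. The other 3 SLA-8 probes were above background in 4 of 4 Cy5 channels but in 0 to 2 Cy3 channels and were not tested.

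B2M encodes beta-2 microglobulin, the light chain that every class I heavy chain needs to reach the surface. Its brighter probe (A_72_P709927) had 94660, 129234, 65980 and 89874 units in treated explants, against 97180, 183489, 108846 and 112804 in untreated explants. Treated RNA was dimmer on 4 of 4 arrays, with log2 ratios of -0.04, -0.51, -0.72 and -0.33 on arrays 1 to 4. The fitted ratio was -0.40 ± 0.19 (95% interval -0.85 to 0.06; limma adjusted p = 0.999), or 0.759 times the untreated level, with a dye term of 0.02. With median centring it was 0.04, and without array 3 it was -0.23. The second probe of the same transcript (A_72_P441589) stood at 0.45 on array 1 and at -0.52, -0.07 and -0.73 on arrays 2 to 4, with a fitted ratio of -0.22 ± 0.18, or -0.09 without array 3, and a dye term of 0.41.

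**Figure D2:**
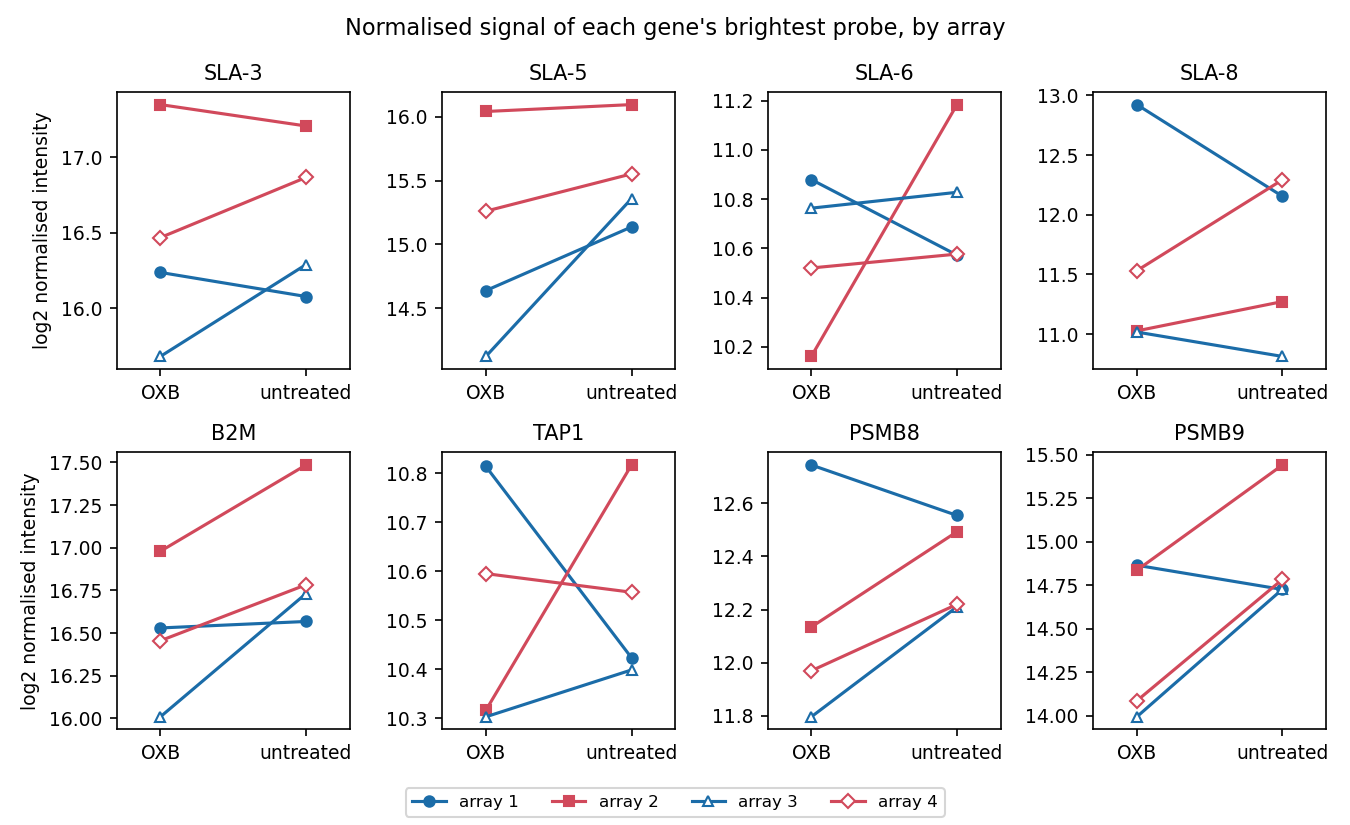
Log2 of the normalised intensity of the brightest tested probe of each gene in OXB-treated and untreated explants (x axis), with a line for each of the 4 arrays. The y axes differ between genes and do not start at 0. The lines of SLA-5 and B2M slope the same way on 4 of 4 arrays, and those of the other 6 genes do not.

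TAP1 encodes a subunit of the transporter that carries peptides into the endoplasmic reticulum. Its tested probe (A_72_P223837) had 1801, 1275, 1264 and 1547 units in treated explants, against 1374, 1804, 1350 and 1507 in untreated explants. Treated RNA was brighter on arrays 1 and 4 and dimmer on arrays 2 and 3. The fitted ratio was -0.04 ± 0.19, with a 95% interval of -0.50 to 0.42, and became 0.09 without array 2 and 0.08 without array 3. The dimmer TAP1 probe was above background in 4 Cy5 channels but in 1 Cy3 channel and was not tested.

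PSMB8 and PSMB9 encode catalytic subunits that replace their constitutive counterparts in the immunoproteasome, and in the RefSeq table TAP1 lies between them. PSMB9 had 29836, 29243, 16300 and 17372 units by its brighter probe (A_72_P035551) in treated explants, against 27086, 44508, 27121 and 28203 in untreated explants. Treated RNA was dimmer on arrays 2, 3 and 4, with ratios between -0.73 and -0.61, and slightly brighter on array 1, at 0.14. The fitted ratio was -0.48 ± 0.20 (95% interval -0.96 to 0.01; limma adjusted p = 0.999), 0.719 times the untreated level, and -0.08 with median centring. Leaving out array 3 brought it to -0.26, and leaving out array 1 to -0.69. The second PSMB9 probe (A_72_P440071), at 0.16, -0.38, -0.39 and -0.56 on arrays 1 to 4, was also above 0 on array 1 alone. Its fitted ratio was -0.29 ± 0.19, and -0.15 without array 3.

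PSMB8 had 6861, 4496, 3557 and 4011 units by its brightest probe (A_72_P444948) in treated explants, against 6015, 5765, 4739 and 4770 in untreated explants. Array 1 was again the one array with a ratio above 0. Its 3 probes were fitted at -0.21 ± 0.19, -0.12 ± 0.19 and -0.23 ± 0.23, and the first of these was 0.14 with median centring and -0.06 without array 3. Over the 5 immunoproteasome probes the median ratio by array was 0.19, -0.36, -0.41 and -0.56.

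Differences between members were compared within each array on their brightest probes, in 7 pairs. PSMB9 stood below TAP1 on 4 of 4 arrays, by a mean difference of -0.43 ± 0.30 log2 units (SD, n = 4; exact two-sided sign-flip permutation p = 0.125, adjusted over the pairs 0.438). It also stood below PSMB8 on 4 of 4 arrays, by -0.27 ± 0.17 (exact permutation p = 0.125, adjusted 0.438). With 4 arrays 0.125 is the smallest p this test can give, so no pair could pass. The contrasts of PSMB9 held on 4 of 4 arrays for its brighter probe only. Its second probe (A_72_P440071) stood above TAP1 on array 2, at -0.38 against -0.50. On array 3 it stood above the brightest PSMB8 probe, at -0.39 against -0.41. SLA-3 differed from SLA-6 by 0.03 ± 0.77 and from SLA-8 by -0.17 ± 0.63, and SLA-5 from SLA-8 by -0.51 ± 0.98, each with differences of both signs among the arrays. B2M differed from SLA-3 by -0.22 ± 0.30 and from SLA-8 by -0.39 ± 0.62. The contrasts with SLA-3 depended on the probe: its brightest was fitted at -0.18, while its 7 probes had a median of -0.35. With the mean of a gene's probes, SLA-3 was fitted at -0.34, B2M at -0.31 and SLA-6 at -0.21, so SLA-3 was then the lowest of these.

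The dye term was larger in size than the treatment ratio for 7 of the 19 member probes (36.8%), against 64.1% of all tested probes. Limma called 0 of 13782 probes (0%) for dye at an adjusted p under 0.05, and 1950 (14.1%) were at an unadjusted p under 0.05. The tested probes of SLA-6, SLA-8 and TAP1, and 1 probe each of SLA-3, SLA-5, B2M and PSMB8, had the larger dye term. If the label text is instead read as treated RNA in Cy5 on every array, 12 of the 19 member ratios lay above 0 and 7 below, with a median of 0.10. These values are the dye terms themselves, which that reading puts in place of the treatment ratio. The labels of the channels and the authors' deposited value table give the dye swap used here.

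**Figure D3:**
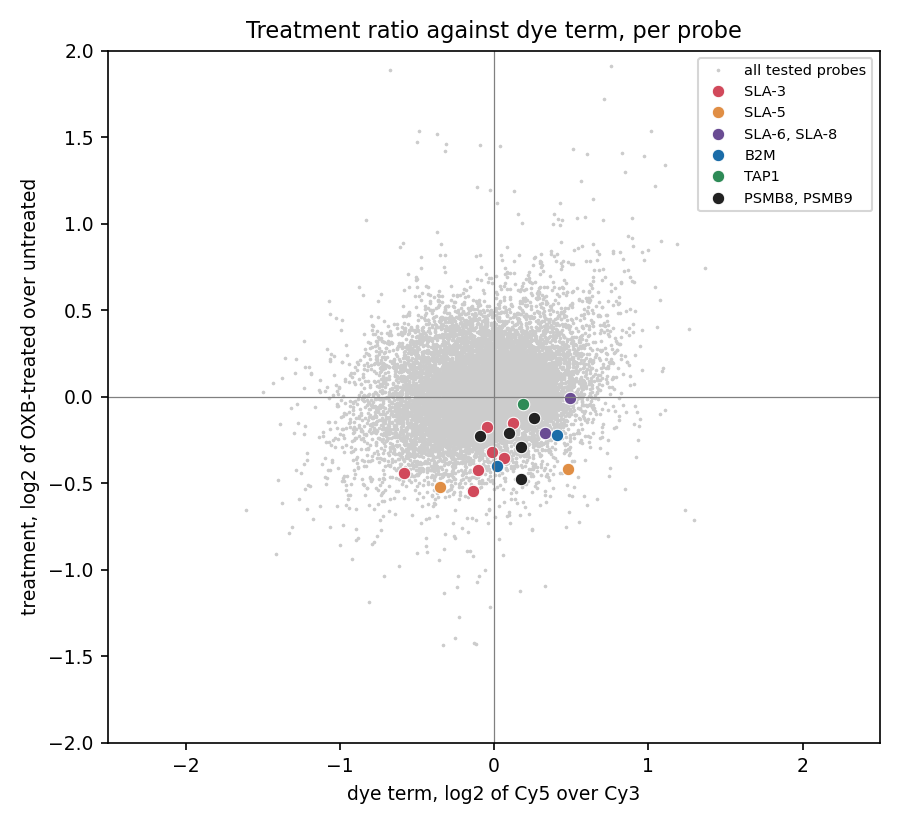
Fitted treatment ratio (y axis, log2 of OXB-treated over untreated) against the dye term (x axis, log2 of Cy5 over Cy3) for each probe with loess. Grey points are all tested probes except 2 with no dye term, and coloured points the 19 member probes. The member probes lie below the horizontal line with loess, with dye terms from -0.58 for an SLA-3 probe to 0.49 for SLA-8. With median centring 13 of them would lie above that line, and the median of all tested probes at 0.28.

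A list of 50 other genes of the class I pathway had 28 on the array and 22 tested, of which 16 had a ratio below 0 and 6 above it with loess (median -0.15, and 0.12 with median centring against 0.28 for all tested probes), and 0 passed the adjusted threshold. For comparison, 56.1% of all tested named genes had a ratio below 0. The values of single genes and markers that follow are those with loess and were not recomputed with median centring. All 4 tested genes of peptide loading were below 0 with loess. TAP2, the partner of TAP1, stood at -0.11 ± 0.17, the lectin chaperone CALR at -0.29 ± 0.17 and its membrane-bound relative CANX at -0.23 ± 0.19. HSP90B1, an endoplasmic reticulum chaperone, stood at -0.75 ± 0.39 beside a dye term of -1.31, with -3.37 on array 1, and its 8 probes ran from -0.75 to -0.03.

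PSMB10, the third subunit specific to the immunoproteasome, stood at -0.39 ± 0.17, with all 3 probes between -0.39 and -0.37. Its ratios by array were -0.74, -0.10, -0.81 and 0.10, so array 1 was low where PSMB8 and PSMB9 were high. PSMB6 and PSMB7, which PSMB9 and PSMB10 replace, stood at 0.08 ± 0.21 and -0.00285 ± 0.18. The structural subunits PSMB4 and PSMA6 stood at -0.06 ± 0.19 and -0.23 ± 0.17. The proteasome activator genes PSME1 and PSME2, which interferon gamma also induces, stood at 0.07 ± 0.17 and -0.03 ± 0.18, and the nuclear activator gene PSME3 at 0.19 ± 0.22. Whether these subunits differ from the immunoproteasome genes was not tested.

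Among genes that carry the interferon signal, IFNGR1, a chain of the interferon gamma receptor, had the lowest fitted ratio, -0.61 ± 0.26, beside a dye term of -1.38. JAK2, a kinase of that receptor, was fitted at 0.27 ± 0.21, but its untreated signal was above background on 2 of 4 arrays, so this value and its place as the highest rest in part on signals not well above background. Of the 8 tested genes of this group, 6 had a ratio below 0 with loess. NLRC5, the transactivator of class I genes, was above background in 4 Cy5 channels but in 0 Cy3 channels and was not tested. IFNG, above background in 3 Cy5 and 0 Cy3 channels, was not tested either. FCGRT, a class I-like Fc receptor that pairs with beta-2 microglobulin, stood at 0.16 ± 0.24. KLRK1, the NKG2D receptor of NK and T cells, stood at -0.26 ± 0.19, with its untreated signal above background on 3 of 4 arrays.

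**Figure D4:**
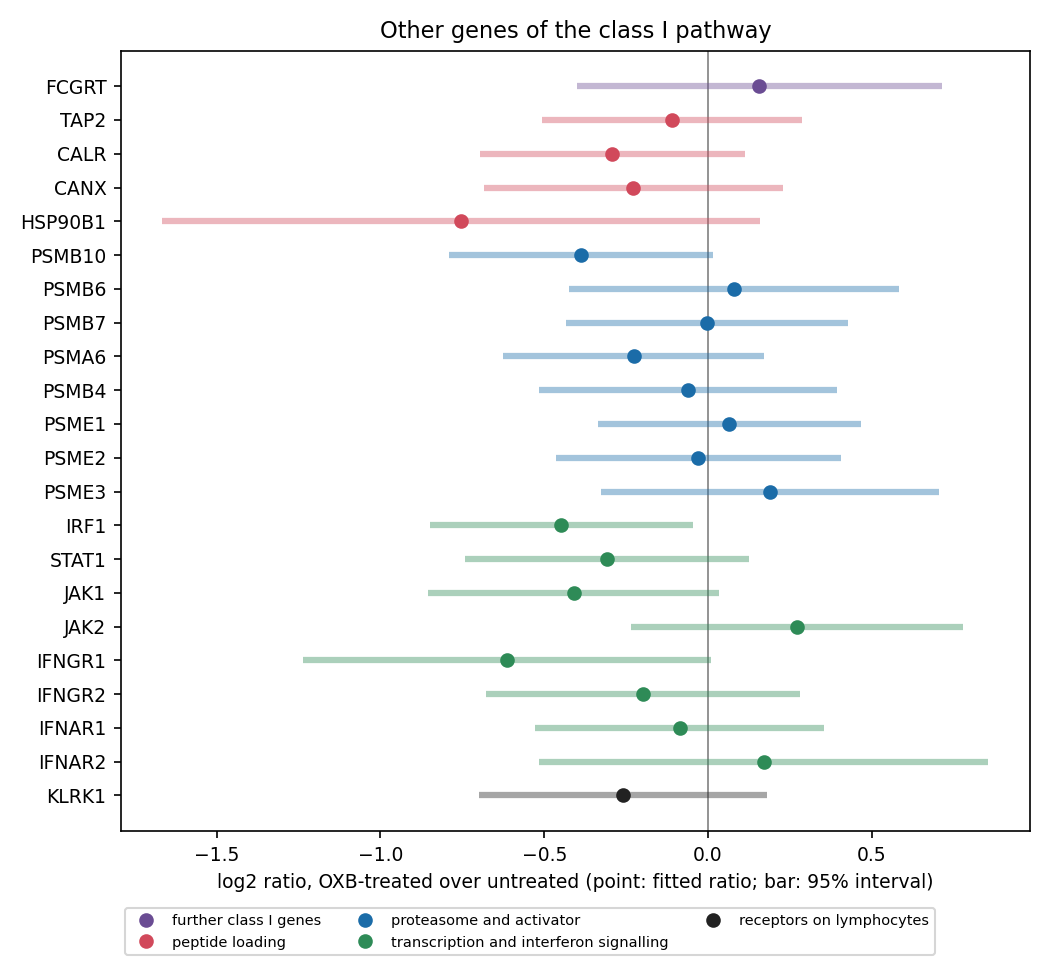
Fitted log2 ratio of OXB-treated over untreated explants (x axis) with its 95% interval for the 22 tested genes of the wider class I pathway (rows), coloured by function. With loess 16 points lie left of 0 and 6 right of it, while median centring put the list's median at 0.12 and that of all tested probes at 0.28.

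Leukocyte markers were measured beside these genes. Of 14 such markers, 6 were tested, 5 with a ratio below 0 and 1 above it with loess (median -0.32, with 0 passing). Their summed signal ran from 6161 to 12032 units in treated explants and from 7050 to 18902 units in untreated explants. These ranges leave out the pairing within arrays, and intensities were not scaled between arrays. The array medians of these markers were -0.11, -0.47, -0.07 and -0.58 on arrays 1 to 4, against 0.16, -0.39, -0.43 and -0.33 for the 19 member probes. Epithelial markers had 4 of 5 tested genes below 0 with loess (median -0.26), with array medians of -0.77, -0.65, -0.43 and 0.61. The part of either cell type in the class I ratios was not tested.

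The tested named genes nearest to the median profile of the members over the 4 arrays were ACTN1, CTSH, NOS2, GNG12 and SLA-DRB1. Nearness was the Euclidean distance between the 4 array ratios of a gene and the median ratios of the 8 member genes, which were 0.17, -0.43, -0.51 and -0.31. The 5 distances ran from 0.23 to 0.27, and the median over 1596 candidate genes was 1.04. As the 5 were chosen for the smallest distances, that gap was fixed by the choice. Single members need not follow the median profile: SLA-8 stood at 0.77, -0.25, 0.20 and -0.76. SLA-DRB1, a class II chain, stood at 0.34, -0.46, -0.30 and -0.31 on the 4 arrays.

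The sign of the class I ratios depended on the scaling, and that of some probes on single arrays. With median centring the median of the 19 probes was 0.07, and 18 of the 19 lay below the median of all tested probes, 0.28. With loess the median of the 19 stayed below 0 whichever array was left out. Leaving out array 3 brought the median of the 19 probes to -0.15, with 5 probes above 0, while leaving out array 1 brought it to -0.43, with 19 below 0. In the authors' deposited value table, which holds log2 ratios turned to treated over untreated, 19 of the 19 probes were below 0, from -0.55 to -0.13.

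**Figure D5:**
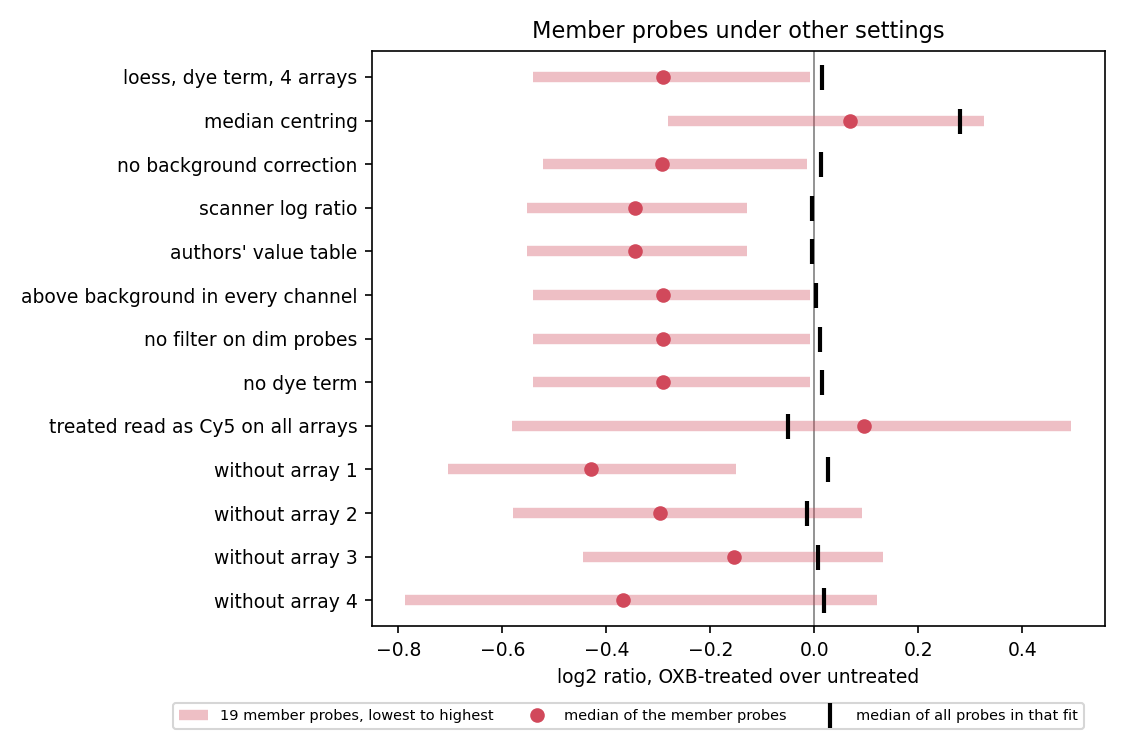
Log2 ratio of OXB-treated over untreated explants (x axis) under each setting (rows): red bars run from the lowest to the highest of the 19 member probes, red points are their median and black ticks the median of all probes in that fit. The member median lies left of the black tick in each row except where treated RNA is read as Cy5 on all arrays, and right of 0 there (0.10) and with median centring (0.07). The row with treated RNA read as Cy5 on all arrays shows the dye terms.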

How the data were processed

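Per the file headers, the slides were of Agilent design 026440 and were read with Feature Extraction 10.7.3.1, which gave the deposited intensity of every spot in both channels. It also wrote the deposited log10 ratio of the processed Cy5 and Cy3 signals. The authors' deposited value table holds log2 ratios. Its columns correlated at 1.00 (arrays 1 and 3) and -1.00 (arrays 2 and 4) with the processed Cy5 over Cy3 ratio over 43574 probes, so it runs as treated over untreated, uncentred, with medians of 0.18, 0.29, 0.01 and 0.03.

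Median signals were background-corrected by normexp (offset 50) and then normalised within each array by loess (limma 3.58.1, R 4.3.3), in which control spots and outliers had a weight of 0. Outlier spots were left out and spots of a probe averaged. Printed intensities are these normalised values, not scaled between arrays, and no spot was saturated. Testing required a probe to exceed background clearly in the 4 channels of at least 1 condition. lmFit and eBayes fitted a treatment and a dye term, leaving 2 residual degrees of freedom and 5.09 prior ones. An array was missing for 215 tested probes, 0 of them members. Standard errors are moderated by that fit, and p-values are two-sided. A gene is its brightest tested probe. The fit was also run on simulated data with independent errors for each probe, which cannot show how it handles errors shared by the probes of an array. The number of arrays limits the precision.

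Accessions were matched without versions to the RefSeq table of Sscrofa11.1. The array files name no build, so no coordinates are given. The members, lists and alternatives were chosen with earlier results of these data known. Named were all members, the tested peptide loading and proteasome genes, the lowest and highest gene of each other pathway group, and the 5 nearest genes. Pathway members without a matched probe, and red blood cell markers, were not analysed here. Of the marker lists not described in the report, the median ratios with loess were 0.22 (stroma, 2 tested genes), -0.21 (smooth muscle, 3), -0.34 (endothelium, 3), 0.10 (trophoblast and conceptus, 4) and 0.22 (endometrial glands, 2).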

Additional observations from a re-analysis of the deposited data

Results flagged for a closer look

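In 3 of the 41 member probes and pathway genes checked, 1 array stood apart from the other arrays by Dixon's test for 4 values, and chance gives such a case in about 1 of 20. For the PSMB9 probe A_72_P035551, array 1 stood at 0.14 and the others between -0.73 and -0.61 (gap over range 0.853). For FCGRT, array 3 stood at -0.68 and the others between 0.36 and 0.56 (0.839). For KLRK1, array 2 stood at 0.23 and the others between -0.48 and -0.37 (0.850).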

How the results depend on the processing

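No member probe passed the adjusted threshold in any of the fits run, so the alternatives bear on direction and size only. The number of arrays limits all of them. The fit of 4 arrays with the dye term leaves 2 residual degrees of freedom, and fits without an array leave fewer. The low share of Cy3 spots above background left some member probes untested, while the 19 tested ones were above background in every channel. Without background correction, and with the scanner's log ratio, 19 of 19 member probes had a ratio below 0. The authors' value table holds nearly the same values as the scanner's log ratio for these probes. Both filters on dim probes and the fit without the dye term leave a member's ratio as it is by construction and bear only on its error and p. With median centring the ratios above 0 were 0.213, 0.0969, 0.263 and 0.0103 for the SLA-3 probes A_72_P649741, A_72_P515992, A_72_P682906 and A_72_P440386, 0.0682 for SLA-6, 0.326 for SLA-8, 0.0353 and 0.208 for B2M, 0.205 for TAP1, 0.137, 0.166 and 0.0696 for PSMB8 and 0.0862 for a PSMB9 probe. The median of all tested probes was then 0.28, that of the member genes 0.10, against -0.21 with loess, and that of the pathway list 0.12. With treated RNA read as Cy5 on all arrays, which puts the dye term in place of the treatment term, the ratios above 0 were 0.122 and 0.0664 for SLA-3 (A_72_P682906, A_72_P440386), 0.477 for SLA-5, 0.33 for SLA-6, 0.495 for SLA-8, 0.0184 and 0.409 for B2M, 0.189 for TAP1, 0.0961 and 0.258 for PSMB8 and 0.178 and 0.177 for PSMB9, and the median of the member genes was 0.14. Leaving out each array in turn gave both signs for SLA-6 (-0.451 to 0.0324), TAP1 (-0.177 to 0.0927), SLA-8 (-0.15 to 0.132), the SLA-3 probes A_72_P649741 (-0.369 to 0.0156) and A_72_P682906 (-0.322 to 0.0178) and the PSMB8 probes A_72_P088176 (-0.276 to 0.0301) and A_72_P564399 (-0.521 to 0.0629); the cause was not tested. The other 12 member probes stayed below 0 in these fits. The number of called probes was 0 to 15 when an array was left out (15 without array 2, of which 0 were members) and 0 under every other setting. At an unadjusted p under 0.05 it was 357 to 1570 (1570 without array 4), 1080 with median centring, 1394 with no filter, 270 without the dye term and 2145 with treated read as Cy5 throughout. Using the mean of a gene's probes, 8 of 8 member genes stayed below 0, with a median of -0.26. Every fit is paired within arrays, since each array holds both conditions.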
